A study of Mus musculus with 29 samples.

Results

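The genes of activated fibroblasts and their matrix followed here are Fbln2, Mfap5, Dcn, Lum, Postn, Penk, Fst, Fap, Pdgfra and Pdgfrb, 10 of the 35199 genes in the tables. They were chosen by symbol, several of them because they were among the large falls in luminal tumors. Their levels in luminal tumors and luminal domains against basal tumors are therefore given as a description, with no test. The comparisons of luminal domains with luminal tumors and with basal-like domains reuse those libraries and are likewise a description. The genes are tested in the cells sorted at 4 days.

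The study asked what an activated Pparg, a nuclear receptor, does in mouse bladder urothelium at rest and in tumors. K5VP16;Pparg mutants (K5VP16;Pparg+/- in the labels) carry a VP16 activator fused to Pparg1, switched on by tamoxifen through a K5-driven Cre, so that only basal cells and what derives from them express it. Gfp-positive cells were sorted 4 days after tamoxifen from 4 control and 5 mutant libraries of untreated mice, and the labels list the controls as wild type. Tumor tissue was laser captured from mice given 0.05% BBN, a bladder carcinogen, in the drinking water. There were 3 basal tumors of mice labelled wild type, and from mutants 3 luminal tumors and, from lesions of mixed type, 3 luminal domains (labelled the top of the tumor) and 3 basal-like domains (labelled the bottom). The labels give 4 months in the tumor titles and 5 months of BBN as the treatment of every tumor group, and no age. Both tumor classes thus share the carcinogen and differ in the transgene as well as in subtype.

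Values are normalized counts, and each comparison was made within 1 table. Libraries are numbered within a group by the order of their columns, which is a name and not the replicate number of the labels. Nothing says whether the libraries of a group come from separate mice, so p-values measure the spread between libraries. Total normalized counts ran from 36520193 to 41435665 in the 9 sorted libraries and from 41697178 to 53252995 in the table of 8 tumor libraries. The study states a targeted sequencing depth, but the number of reads reached in each library is unknown. The tissue labels were checked against markers. Summed epithelial markers were 284488 to 568056 in the sorted libraries. In the tumors, Upk1a, Upk2, Upk3a and Pparg, genes of luminal urothelium, were higher in luminal than in basal tumors with limma, at adjusted p between 0.0135 and 0.0364. The count called in that list moved in 3 of 6 fits with 1 tumor left out, and it was 0 without luminal tumor 1. Reads of the Pparg1 transgene, which the mutants express, may be counted as Pparg, so Pparg is no separate check of the label.

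Fibroblasts around a carcinoma can take on an activated state, in which they divide in response to platelet-derived growth factor and lay down and remodel collagen-rich matrix. The 2 receptors Pdgfra and Pdgfrb receive that signal at the cell surface, Fap is a membrane serine protease of reactive stroma, and Postn is a matricellular protein that links collagen to other matrix proteins. Dcn and Lum are small leucine-rich proteoglycans that bind collagen fibrils, Fbln2 and Mfap5 belong to elastic fibres and microfibrils, Fst binds and blocks activin, and Penk is the precursor of enkephalin peptides. In bulk or captured tissue, fewer cells of a type and less RNA per cell cannot be told apart.

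Fbln2, the fibulin of elastic fibres and basement membranes, was near the bottom of the scale in every luminal tumor. It stood at 3937, 278 and 13894 normalized counts in basal tumors 1 to 3 and at 15.2, 1.40 and 3.82 in luminal tumors 1 to 3. In the 2 luminal domains of the same table it stood at 14.5 and 1.09. All 5 luminal libraries were far below the lowest basal tumor, although the basal tumors themselves differed 49.9-fold. On the log2(normalized count + 1) scale the mean of the luminal tumors was lower by 8.76, which understates changes of genes with low values.

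Mfap5, which binds fibrillin in microfibrils, had the same order of groups. Its levels were 2257, 491 and 70.2 in the basal tumors, 3.15, 3.18 and 0.625 in the luminal tumors, and 0 and 3.27 in the luminal domains. The basal tumor with the most Fbln2, number 3, had the least Mfap5, so the pair did not share a ranking within the group.

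Postn stood at 6469, 1907 and 8566 in the basal tumors, at 14.5, 13.2 and 521.6 in the luminal tumors, and at 484.5 and 273.7 in the luminal domains. Luminal tumor 3 was near the domains, and the other luminal tumors were far below them. Pdgfrb, the receptor typical of pericytes and fibroblasts, was listed at 0 in luminal tumors 1 and 2 and at 19.6 in luminal tumor 3, against 1131, 689.7 and 368 in the basal tumors. The luminal domains, at 353 and 478, were in the range of the basal tumors or just under it.

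Reference sequence just upstream of the gene was available for 3 of the 10 genes, with 4 entries in RefSeq on GRCm38.p6, each 250 bases before to 50 after an annotated start. Fbln2 and Postn are shown because they had large differences between tumor classes, and capitals mark the only match found to any of the motifs searched.
Fbln2, chr6:91212514-91212813, plus strand: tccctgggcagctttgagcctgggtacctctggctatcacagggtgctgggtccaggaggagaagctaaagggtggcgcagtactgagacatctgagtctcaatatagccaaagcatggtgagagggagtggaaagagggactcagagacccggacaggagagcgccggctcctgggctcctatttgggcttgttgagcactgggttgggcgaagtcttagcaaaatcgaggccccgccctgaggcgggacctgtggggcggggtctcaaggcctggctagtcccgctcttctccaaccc
Postn, chr3:54360857-54361156, plus strand: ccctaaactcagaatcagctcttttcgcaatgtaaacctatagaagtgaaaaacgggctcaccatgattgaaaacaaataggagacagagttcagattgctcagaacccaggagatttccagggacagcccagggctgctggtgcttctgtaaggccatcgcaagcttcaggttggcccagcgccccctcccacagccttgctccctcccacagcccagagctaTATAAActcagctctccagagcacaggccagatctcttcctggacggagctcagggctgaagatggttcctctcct
The match is the TATA motif TATAAA, which begins at position -26 from this start of Postn. TATAAA occurs on either strand in 13.6% of the 32851 promoters in the reference. The AP-1 motif TGANTCA (7.81% of all promoters), the TEAD motif GGAATG (14.7%) and the PPAR:RXR direct repeat, which is 2 copies of AGGTCA with 1 base between them (0.0396%), were not found on either strand in these windows, in the other Postn entry or in Pdgfra. Entries for Mfap5, Dcn, Lum, Penk, Fst, Fap and Pdgfrb were not used here.

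Dcn, which spaces collagen fibrils, was at 8887, 17422 and 3492 in the basal tumors, at 116.5, 38.4 and 2325 in the luminal tumors, and at 8082 and 768 in the luminal domains. Lum, its neighbour as the next coding gene on chromosome 10, was at 2210, 279 and 118 in the basal tumors, at 50.7, 0 and 52.1 in the luminal tumors, and at 78.4 and 2.66 in the luminal domains. Luminal domain 1 held more of both proteoglycans than any luminal tumor, and luminal domain 2 held more Dcn than 2 of the 3 luminal tumors but less Lum than 2 of them.

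Penk was listed at 0 in all 3 luminal tumors, and no fold is given for it. The basal tumors stood at 110.7, 9949 and 296, so that basal tumor 2 carried most of the group mean, and the luminal domains at 0.956 and 75.7. Fst was at 12216, 1452 and 7917 in the basal tumors, and at 53.7, 2.17 and 1851 in the luminal tumors. Luminal tumor 3 was above basal tumor 2, so these groups overlap, whereas both luminal domains, at 8.09 and 4.82, were low.

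Fap and Pdgfra overlapped between the tumor classes. Fap stood at 296.7 in basal tumor 1, but at 0 and 1.82 in the other basal tumors and at no more than 5.64 in any luminal library, and it did not pass the filter on low values. Pdgfra was at 262, 264 and 456 in the basal tumors and at 3.35, 9.76 and 322.5 in the luminal tumors, where the last lies within the basal range. Its highest value in the table, 506, was in luminal domain 1.

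**Figure D1:**
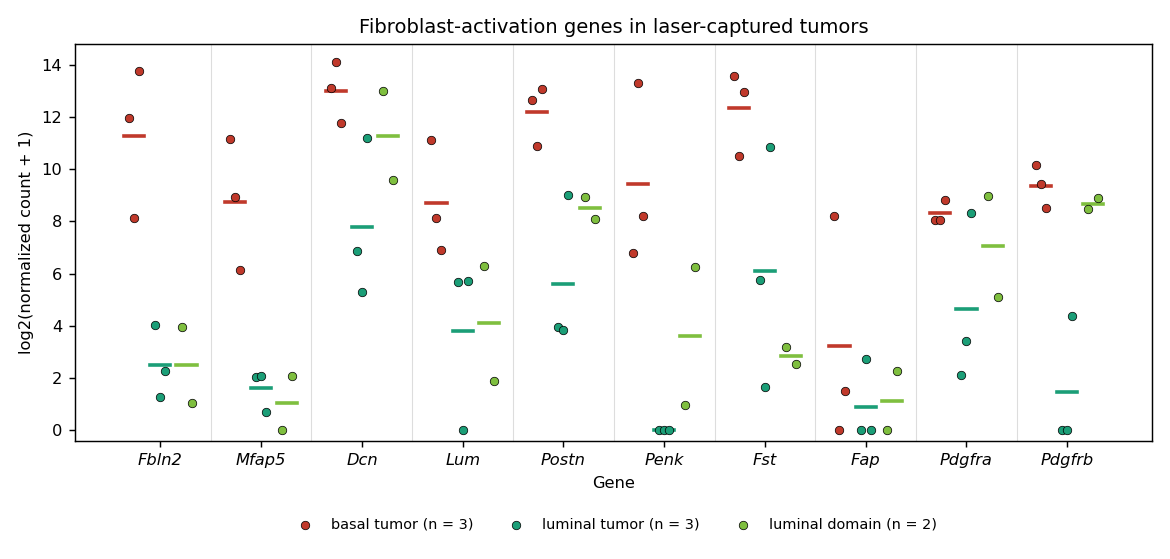
Each point is a library of the tumor table, for 3 basal tumors, 3 luminal tumors and 2 luminal domains, with log2(normalized count + 1) on the y axis, the 10 genes on the x axis and a bar at the group mean. Fbln2 and Mfap5 are low in all 5 luminal libraries, whereas Pdgfrb is low in the luminal tumors and near the basal level in the luminal domains.

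In luminal tumors, 7 of the 10 genes did not overlap the basal tumors, all of them lower, where 11.6% of the 15357 genes tested did so. For the 9 genes that passed the filter the median log2 difference was -6.60, against -0.11 over all genes tested. Since this contrast chose the genes, nothing is read from that share. The log2 differences, luminal minus basal, were -7.14 for Mfap5, -5.20 for Dcn, -4.90 for Lum, -6.60 for Postn, -6.25 for Fst, -3.68 for Pdgfra and -7.91 for Pdgfrb. Marker lists of stroma had lower median sums in the same libraries, with ranges that overlapped for smooth muscle and pericytes and for endothelium. The 10 fibroblast markers summed to between 63801 and 80769 in basal tumors and between 4177 and 25065 in luminal tumors, with 4 called lower (Col1a1, Col1a2, Thy1 and Pdpn), where 0.938% of all genes were called lower, and none of the 10 was at 0 throughout a group. That count was 8 without luminal tumor 3 and 0 without any other single tumor. The sums for smooth muscle and pericytes were 8125 to 55152 and 3587 to 10398, with 8 of 9 lower and 1 higher without overlap. Of them 4 were called lower, and Des was at 0 in every luminal tumor. Here the count was 5 without luminal tumor 3, 3 without basal tumor 2 and 0 without any other single tumor. Endothelial markers summed to 1761 to 3081 and 373 to 1793, with 1 of 6 called lower, a count that fell to 0 when any tumor but luminal tumor 3 was left out. Leukocyte markers summed to 27600 to 139011 and 714 to 10816, with 0 of 6 tested genes called. Epithelial markers summed to 111668 to 273809 and 412483 to 555830, with 4 of 6 higher in mean. These lists were chosen with earlier results of these data known, so nothing is read from their counts against the shares over all genes. The part of these lists in the result was not tested.

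Another table holds the same 3 basal tumors with 3 luminal domains, and there 5 of the 10 genes did not overlap, all lower in the domains, where 12.8% of 14921 tested genes did so. These were Fbln2, Mfap5, Lum, Postn and Fst. Luminal domain 3, which the first table lacks, stood at 2.75 for Fbln2, 0 for Mfap5, 3.21 for Lum, 390.9 for Postn and 109.7 for Fst. Each of these was below every basal tumor of the table. In the other 5 genes the groups overlapped, and Penk at 971 in luminal domain 3 was above basal tumors 1 and 3. The log2 differences were -9.02 for Fbln2, -8.47 for Mfap5, -8.16 for Fst, -5.29 for Lum and -3.63 for Postn, and they were -1.71 for Dcn, -1.50 for Pdgfra and -0.85 for Pdgfrb.

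In that table the fibroblast markers summed to 65489 to 84704 in basal tumors and 12206 to 29604 in luminal domains, with 1 of 10 called lower. Leukocyte markers summed to 28409 to 146270 and 8363 to 18013. Those of smooth muscle and pericytes summed to 8708 to 61691 and 4747 to 20494, with 5 of 9 lower and 1 higher without overlap. Of them 3 were called lower, where 0.824% of all genes were. Endothelial markers overlapped, at 1909 to 3305 and 1965 to 3975. Epithelial sums were higher in the domains, at 117744 to 285468 and 329026 to 608310. Of these markers 4 of 6 were higher in mean and 1 was called higher, where 1.7% of all genes were. Without luminal domain 1 or 2 none of these calls remained, since 0 of all genes were called. Here too nothing is read from the counts of the lists against those shares. The lists were chosen with earlier results known. Their part in the result was not tested. Per 1000 normalized counts of the fibroblast markers, Fbln2 was at 51.7, 4.63 and 192.9 in the basal tumors and at 0.552, 0.0943 and 0.225 in the luminal domains. Fst was at 149, 22.5 and 102 in the basal tumors and at 0.287, 0.389 and 8.99 in the luminal domains. On the same measure the receptor Pdgfrb was at 14.1, 10.9 and 4.86 in the basal tumors and at 12.8, 39.5 and 23.5 in the luminal domains. Mfap5 was at 40.8, 11.3 and 1.34 in the basal tumors and at 0, 0.392 and 0 in the luminal domains. For Lum and Postn, which did not overlap in normalized counts, the ratios overlapped, with Lum at 27.5, 4.41 and 1.56 in the basal tumors and at 2.84, 0.219 and 0.263 in the luminal domains. Postn was at 77.3, 28.9 and 108 in the basal tumors and at 16.8, 21.6 and 32.0 in the luminal domains. These ratios describe values that took part in the choice of the genes.

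**Figure D2:**
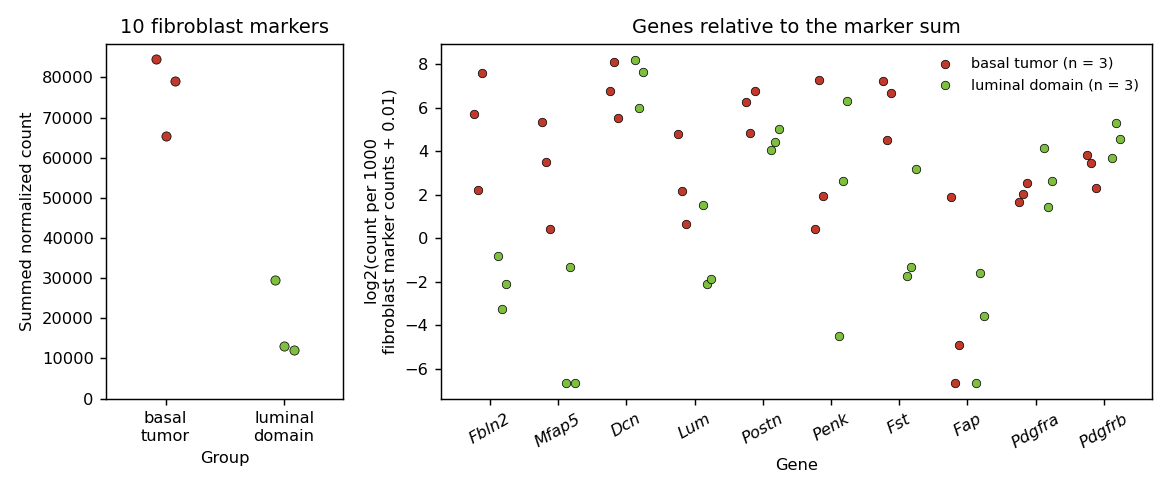
The left panel gives the summed normalized count of 10 fibroblast markers in 3 basal tumors and 3 luminal domains, and the right panel each gene per 1000 of those counts, as log2 of that value + 0.01, with 1 point per library. Fbln2, Mfap5 and Fst lie below every basal tumor in the luminal domains on this measure, whereas the points for Lum, Postn, Dcn, Pdgfra and Pdgfrb overlap or are higher.

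Luminal domains of mixed lesions and luminal tumors are set side by side as a description, since the libraries of both took part in the choice of the genes. Pdgfrb showed the largest difference among the 10. Its mean was 415 ± 88.5 (SD, n = 2) in the luminal domains and 6.54 ± 11.3 (SD, n = 3) in the luminal tumors, a log2 difference of 7.23, and the libraries did not overlap. Dcn was 3.50 log2 units higher in mean in the luminal domains and Postn 2.91 higher, both with overlapping libraries. Fst was lower in mean in the domains, at -3.24 log2 units, also with overlap, and Fbln2 differed by -0.01. Pdgfrb and Penk were the 2 genes of the 10 that were higher in the domains without overlap, where 10.7% of genes were, and nothing is read from that share. Over all 16640 genes tested limma called 0 (0%), 761 had an unadjusted p under 0.05, and 7 were called when eBayes was run without a trend. The fibroblast markers summed to 12181 and 27798 in the 2 luminal domains against 4177 to 25065 in the luminal tumors, with 9 of 10 above 0 in log2 difference and 0 called. All 6 endothelial markers were higher in mean in the domains, with sums of 1758 and 3594 against 373 to 1793, and 0 were called. Smooth muscle and pericyte markers summed to 10532 and 17691 in the domains against 3587 to 10398 in the luminal tumors, without overlap, with 8 of 9 higher in mean and 0 called. Their part in the Pdgfrb values was not tested.

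Basal-like domains were compared with luminal domains in a table of their own, unpaired, since its columns do not say which domains come from one lesion. Their library names are neighbours (CT128 and CT129, CT143 and CT144, CT148 and CT149, the luminal domain first), but no label ties them. Lum was at 595, 456 and 131 in basal-like domains 1 to 3 and at 85.0, 2.96 and 3.29 in luminal domains 1 to 3. Fbln2 was at 248, 95.4 and 68.2 in the basal-like domains and at 17.6, 1.35 and 2.99 in the luminal domains. Fst was at 364.8, 140.9 and 1183 in the basal-like domains and at 8.49, 5.19 and 111 in the luminal domains. For these 3 genes every basal-like domain was above every luminal domain, and 5.62% of the genes tested had such an order. Nothing is read from that share, since 2 of the luminal domains took part in the choice of the genes and the 3 genes passed the filter on low values through the basal-like domains.

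The log2 difference, basal-like minus luminal, was 4.86 for Lum, 4.41 for Fbln2 and 4.40 for Fst, given with no test. Over all 14874 genes tested limma called 0 (0%), 757 had an unadjusted p under 0.05, and 20 were called without a trend.

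Of the other genes, Dcn was at 30635, 6505 and 4232 in the basal-like domains and at 8714, 849.7 and 2484 in the luminal domains, a log2 difference of 1.84. Pdgfra was 1.98 log2 units higher and Penk 3.74 higher, with overlapping groups. Pdgfra was at 1402, 435 and 183 in basal-like domains 1 to 3 and at 565, 38.7 and 81.0 in luminal domains 1 to 3. Penk was at 366, 428 and 2202 against 0.958, 77.8 and 946. For both genes and Dcn each basal-like domain was above the luminal domain with the neighbouring library name. This did not hold for Postn or Pdgfrb, and no paired test was made. The share of all genes with such an order was not counted, so nothing is read from it. In Pdgfrb and Postn the groups overlapped and the mean differences were below 1 log2 unit. Pdgfrb was at 475, 194 and 283.5 in the basal-like domains and at 384, 534 and 295 in the luminal domains (log2 difference -0.40), and Postn differed by 0.40. Mfap5 stood at 259 in basal-like domain 1 and at no more than 3.85 in the other 5 libraries, Fap at no more than 4.14 in all 6, and neither passed the filter.

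**Figure D3:**
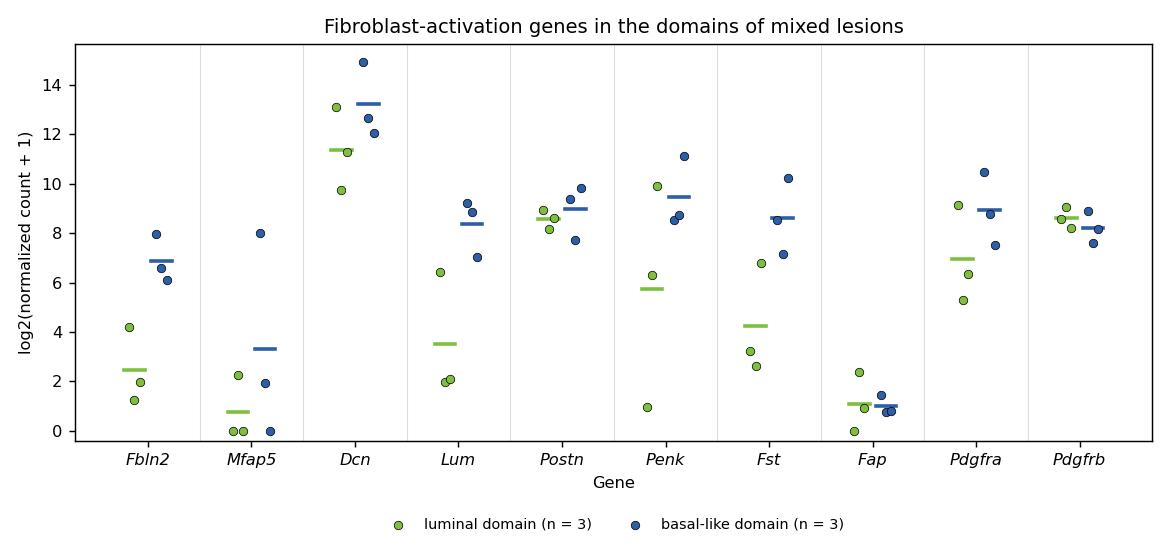
Each point is a library of the domain table, for 3 luminal and 3 basal-like domains, with log2(normalized count + 1) on the y axis, the 10 genes on the x axis and a bar at the group mean. The groups are apart for Fbln2, Lum and Fst and intermixed for Postn, Fap and Pdgfrb.

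The fibroblast markers summed to 17596 to 89801 in the basal-like domains and 12391 to 30494 in the luminal domains, with 8 of 10 higher in mean and 0 called, and leukocyte markers to 4338 to 19776 and 8499 to 18383. Markers of luminal urothelium summed to 30950 to 80641 and 56598 to 314199, with 0 of 6 higher in mean and 2 lower without overlap. Those of smooth muscle and pericytes summed to 4759 to 20605 and 4746 to 20144, with 6 of 7 tested higher in mean. In both lists 0 were called, and their part in the result was not tested. Basal-like domain 1 had the highest fibroblast sum and also the most Fbln2, Mfap5, Dcn, Lum, Pdgfra and Pdgfrb within its group. Per 1000 of the fibroblast marker counts, Fbln2 was at 2.76, 5.42 and 3.82 in the basal-like domains and at 0.577, 0.101 and 0.241 in the luminal domains, with no overlap. Lum did not overlap either, at 6.62, 25.9 and 7.33 against 2.79, 0.221 and 0.266. Fst overlapped on this measure, at 4.06, 8.01 and 66.2 in the basal-like domains and 0.278, 0.387 and 8.96 in the luminal domains. With luminal domain 3, which is not in the table behind the choice, as the sole luminal domain the log2 difference was 4.89 for Fbln2, 6.27 for Lum and 1.82 for Fst, and it became -0.43 for Penk and 0.011 for Pdgfrb.

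In the cells sorted 4 days after tamoxifen, from mice without tumors, 7 of the 8 genes tested were higher in mean in the mutants, as 50.5% of all genes were, with a median log2 difference of 1.98 against 0.00 over all genes. Postn and Pdgfrb passed the filter only with the mutants, where they were higher, so the 7 of 8 is a description. Lum was the gene called of the 8. Control libraries 1 to 4 had 159.9, 123.0, 201 and 373 normalized counts, and mutant libraries 1 to 5 had 1949, 657, 2540.3, 2176 and 479. Every mutant was above every control. Its mean was 1560.3 ± 932 (SD, n = 5) among mutant libraries and 214 ± 110 (SD, n = 4) among control libraries. The log2 difference was 2.70, with SE 0.54 and a limma adjusted p of 0.0303. In this comparison 2.85% of the 16413 genes tested were called in either direction and 1.77% higher. The call was lost when control 1, 2 or 3 or mutant 1, 3 or 4 was left out, with adjusted p up to 0.0982, and in the table of 6 libraries (adjusted p 0.197).

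Pdgfrb also separated the groups, at 17.2, 1.19, 19.3 and 20.4 in the controls and 276, 39.5, 472.5, 78.7 and 73.1 in the mutants. Its log2 difference was 3.46 (SE 0.88, 95% interval 1.49 to 5.42), and the limma adjusted p was 0.0673. Pdgfrb and Lum are 2 of the 8 tested genes that were higher without overlap, against 4.67% of all genes. Pdgfra, the other receptor of the pair, stood at 86.6, 141.8, 244 and 172 in the controls and 626, 142.1, 2274, 715 and 694 in the mutants (log2 difference 2.06, SE 0.65, limma adjusted p 0.114). Mutant 2 was the mutant among the controls.

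Fbln2 was at 492.9, 577, 808 and 1898 in the controls and 4625, 1144, 6809.7, 3218 and 2242 in the mutants, with a log2 difference of 1.90 (SE 0.53, limma adjusted p 0.0836). Again mutant 2 lay within the controls and the other mutants above them. Without mutant 2 the limma adjusted p was 0.0343 for Fbln2, 0.0215 for Pdgfra and 0.0481 for Pdgfrb. Then 4 of the genes were called in place of 1. Over all genes that fit called 596 in place of 467, and both counts were the highest of the 9 fits with 1 library left out. Across those fits the count of these genes called ran from 0 to 4, and the limma adjusted p of Fbln2 reached 0.210. Postn, at 13.2, 0, 0 and 3.24 in the controls and 26.9, 6.89, 94.9, 6.89 and 64.0 in the mutants, differed by 3.20 (SE 1.02, limma adjusted p 0.114).

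Dcn was at 5667, 11179, 20079.8 and 50215 in the controls and 37205, 12389.9, 112147, 70251 and 18597 in the mutants. Its log2 difference of 1.21 (SE 0.75) was within the spread, since the controls alone covered a wide range. Mfap5 differed by 1.15 (SE 0.96) through mutant 3, at 449, and mutant 5, at 118, and Fst by -0.10 (SE 0.95). Penk reached 26.7 and Fap 24.0 at most, both in mutant 3, and neither passed the filter. Mutant 3 held the highest value of 9 of the 10 genes, all but Fst.

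**Figure D4:**
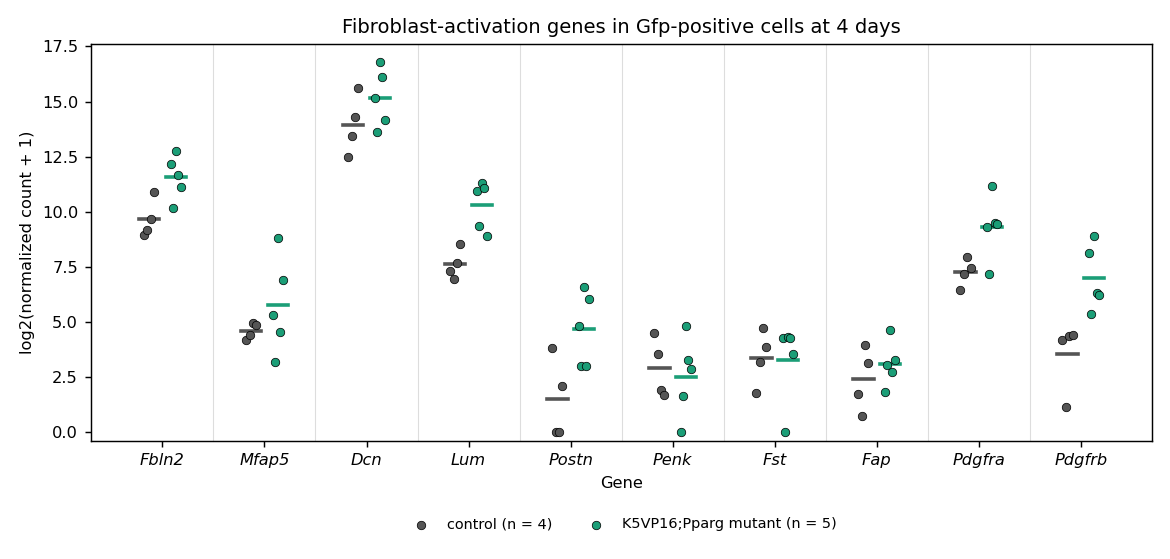
Each point is a library of Gfp-positive cells sorted 4 days after tamoxifen, for 4 controls and 5 mutants, with log2(normalized count + 1) on the y axis, the 10 genes on the x axis and a bar at the group mean. Lum and Pdgfrb do not overlap between groups, and in Fbln2 and Pdgfra 1 mutant lies among the controls.

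Other values moved with this result. The 10 fibroblast markers summed to 8962 to 41869 in the controls and 21374 to 118020 in the mutants, with 8 of 10 higher in mean and 1 called, S100a4 (log2 difference 1.22), and none was at 0 in a whole group. That count was 1 without mutant 4 or 5, 3 without mutant 2 and 0 without any other single library. Mutant 3 had the highest sum. The 9 smooth muscle and pericyte markers were all higher in mean, with sums of 539 to 1440.5 and 1303 to 4013, and 0 were called. Per 1000 fibroblast marker counts, Lum was at 17.8, 6.54, 7.66 and 8.90 in the controls and 37.1, 30.7, 21.5, 32.6 and 9.05 in the mutants, which overlap. Of the 6 epithelial markers 4 were higher in mean in the mutants, with a median log2 difference of 0.32 and sums of 284818 to 355316 in the controls and 284488 to 568056 in the mutants. The called one, Epcam, was lower by 0.72 log2 units (limma adjusted p 0.0189), and none was called without control 2, 3 or 4. The 4 Y-linked genes summed to 404 in control 1, to 9030 to 9177 in controls 2 to 4 and to 338 to 395 in the mutants. In the table of 6 libraries, which lacks control 1, they summed to 8130 to 8294 in the controls and 305 to 356 in the mutants, so that sex, as these genes show it, and genotype cannot be told apart there, and control 1 is the sole library that separates them among the 9. The part of these values in the result was not tested.

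**Figure D5:**
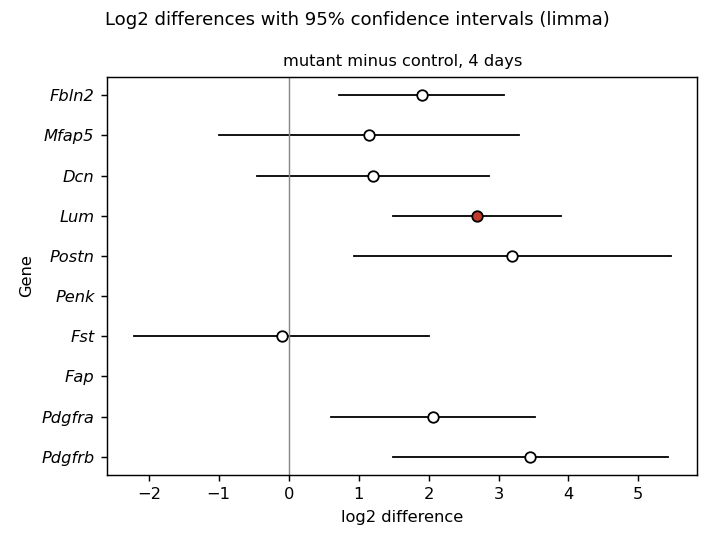
Points are log2 differences with 95% confidence intervals from limma for mutants against controls at 4 days, with the genes on the y axis, and a filled point marks an adjusted p under 0.05. Lum at 4 days is the filled point, the intervals of Fbln2, Postn, Pdgfra and Pdgfrb also lie above 0, and genes without a point did not pass the filter.

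Genes that work with these 10 were read from 8 lists. The lists, too, were chosen with earlier results of these data known. Their counts in the comparisons with basal tumors are a description, and nothing is read from them against the share over all genes. In luminal against basal tumors, where 0.938% of genes were called lower and 1.26% higher by limma, 4 of the 15 tested genes of microfibrils and elastic fibres were called lower. Among them Fbn1, the fibrillin that Mfap5 binds, had a mean of 1925 ± 1334 (SD, n = 3) in basal and 29.0 ± 46.1 (SD, n = 3) in luminal tumors (adjusted p 0.0364), and Ltbp2 was listed at 0 in every luminal tumor. Bgn, a proteoglycan close to Dcn, was the called gene among 4 tested, with a log2 difference of -6.06 (adjusted p 0.0364).

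Of the 8 genes of the matrix in which Postn acts, 4 were called lower, with Tnc at -6.36 and Fn1 at -5.71 the largest (limma adjusted p 0.0364 and 0.0368). Of 12 activin and follistatin genes tested, 3 were called lower, among them Fstl3 (-7.23), an activin antagonist like Fst, and Inhba (-6.39), which encodes the activin subunit. Bambi, a pseudoreceptor that dampens the pathway, was called higher at 3.95. Tgfb3 was the called gene of 8 for TGF-beta, at -7.77. No PDGF ligand or partner and no relative of Fap was called, and none of the 7 opioid genes was tested. These calls rest on the full set of tumors. Without luminal tumor 3 the lower calls were 7 for microfibrils, 5 for the Postn matrix and 3 for activin, and without any other single tumor they were 0 or 1, 0, and 0 or 1. The proteoglycan list of Bgn and the TGF-beta list of Tgfb3 also lost their calls when any tumor but luminal tumor 3 was left out, and the activin list its higher call when any tumor but basal tumor 3 was left out.

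In luminal domains against basal tumors the genes of these lists called lower were Mfap4 (-7.05), Fstl1 (-2.41), Inhba (-3.10), Fn1 (-4.24), Tgfbi (-2.06) and Bmp1 (-2.90), and none was called higher. Over all genes this comparison held 0 calls without luminal domain 1 or 2, 3 without luminal domain 3 and 22 without basal tumor 1. The 2 comparisons share the basal tumors. In the 4-day mutants Lox, which cross-links collagen and elastin, was called higher at 2.90 (limma adjusted p 0.0310), Plat, a protease that activates a PDGF ligand, at 1.82 (0.0189) and Fn1 at 3.67 (0.0189). The microfibril list, which holds Lox, had 1 call without mutant 1 or 3, 2 without mutant 2 and 0 without any other single library. Plat's list had none without control 2 or 3, and Fn1's none without control 2. No gene of the 8 lists was called in the comparisons of domains.

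The genes outside the 10 whose profile over the 8 tumor libraries came nearest to the mean profile of 9 of them were Col27a1, Tnc, Fn1, Serpinb2 and Col5a2. Their root mean square differences from it were 0.547, 0.628, 0.762, 0.867 and 0.867 log2 units. Among the 9 genes behind the mean profile Postn was nearest to it at 1.01 and Penk farthest at 2.88. The mean profile, centred at 0, was 4.28, 3.50 and 3.35 in the basal tumors, -3.28, -4.72 and -0.84 in the luminal tumors, and -0.69 and -1.61 in the luminal domains. Luminal tumor 3 was thus next to the luminal domains rather than to the other luminal tumors, and its fibroblast marker sum, 25065, was the highest of the 3.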

How the data were processed

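RNA-seq libraries were made with SMART-Seq v4 and Nextera XT. Per the submitters' processing notes, the tools were bcl2fastq 2.20, kallisto 0.44.0, sleuth and DESeq2 1.18. The authors summed transcript estimates to genes and normalized each table separately, and the signal deposited for each gene and library is such a normalized count. Only 7.02% to 48.8% of values under 6 lay within 1% of whole multiples of 1 read, so reads were not recovered. The build of the kallisto index is not given in the sources used here. The deposited lists of fold changes and p-values are the authors' own comparisons and were not used. The table of untreated and BBN-treated wild-type urothelium, 8 columns, was not used because nothing maps its columns to a condition.

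A gene was tested if at least n libraries had 10 or more normalized counts, n being the size of the smaller group. The test was limma 3.58.1 (lmFit, then eBayes using a trend) in R 4.3.3, applied to the log2 of the normalized count plus 1, and p-values were adjusted over all genes with the Benjamini-Hochberg method at 0.05. Basal tumors, luminal tumors and luminal domains of the 8-library table shared 1 fit. All 10 genes are named, and of the 8 lists of related genes at most 2 called genes each way per list and comparison, beside counts. Further called genes, named for a count of 5 or fewer or as markers, were named after their values were seen. The 10 genes and all lists were chosen with earlier results of these data known. Fits were tested on simulated data. The alternatives were other pseudocounts (0.5 and 5), filters (none and 50), eBayes without a trend or robust, quantile and upper-quartile scaling, other tables or sets of libraries, scaling to fibroblast markers, and each library left out in turn. Promoters came from RefSeq, and an NF-kB motif and a serum response element were searched too, without a match. Python 3.11.15, pandas 2.3.3 and matplotlib 3.10.9 were used.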

Additional observations from a re-analysis of the deposited data

Results flagged for a closer look

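At 4 days, 4 values stood apart from the rest of their group by Dixon's test at 95%, in 20 groups checked. The test was run on normalized counts and not on the log2 scale of the fits, where these values were not tested. At that level chance is meant to mark about 1 group in 20, a share not checked for normalized counts. All of the values but that of Pdgfrb come from mutant 3, so the groups are not separate chances. Nothing is read from the count of 4 against that share. Mutant 3 stood apart for Mfap5, at 449 normalized counts, for Pdgfra, at 2274, and for Fap, at 24.0. Control 2 stood apart for Pdgfrb, at 1.19 normalized counts, below the other 3 controls.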

How the results depend on the processing

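No paired analysis was possible because the columns of the tables carry no replicate numbers. With libraries left out in turn, the number of genes called ran from 129 to 596 at 4 days (467 with all), from 3 to 813 for luminal against basal tumors (338 with all), from 0 to 467 for luminal domains against basal tumors (377 with all) and from 0 to 1 for luminal domains against luminal tumors. The lowest counts were without control 3, without luminal tumor 1 or 2, without luminal domain 1 or 2 and without any library but luminal tumor 3, and the highest without mutant 2, luminal tumor 3, basal tumor 2 and luminal tumor 3. Without a trend the counts were 269, 142, 107, 7 and, for the domains of mixed lesions, 20. With no filter they were 52 for luminal tumors and 144 for luminal domains against basal tumors. The 4-day table of 6 libraries gave 147. Luminal against basal tumors gave 513 with 5 luminal libraries pooled and 142 with these tumors alone in the fit. Scaling to fibroblast markers, chosen after seeing the data, gave 8697 for luminal tumor against basal tumor, 8009 for luminal domain against basal tumor, 1 for luminal domains against luminal tumors and 3 between domains. The cause of these shifts was not tested.

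Signs turned in the following settings. That scaling moves all genes alike, with the median of all genes at -1.37 at 4 days, 2.16 in luminal domains against basal tumors, -1.02 in luminal domains against luminal tumors and -0.81 between domains, so the signs under it follow that shift. At 4 days it gave -0.21 for Mfap5 and -0.17 for Dcn, and Fst was 0.059 with a pseudocount of 5 and -0.63 to 0.72 without 1 library. In luminal domains against basal tumors it gave 0.47 for Dcn, 0.66 for Pdgfra and 1.33 for Pdgfrb. In luminal domains against luminal tumors, Fbln2 was 0.059 with a pseudocount of 5 and -1.46 to 1.43 without 1 library, Mfap5 was -1.60 to 0.49 without 1 library, and Lum was -0.12 with quantile normalization, -0.27 with the marker scaling and -1.94 to 2.50 without 1 library. Between domains, Postn was -0.43 with the marker scaling and -0.022 to 1.02 without 1 library, and with luminal domain 3 alone Pdgfrb was 0.011 and Penk, at 3.74 with all 3, was -0.43. The depth in reads reached in each library is unknown, and values near 0 carry little precision.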
